A study of Mus musculus with 2 samples.

Results

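Nr4a1, Klf2, Klf4, Cebpb, Pou2f2, Mef2a, Irf2 and Ets1 are 8 of the 32285 genes of the count matrices, picked by symbol as transcription regulators linked to nonclassical monocytes. They were followed in cells of the mouse ankle synovium, the lining of the joint, by CITE-seq, which reads the messenger RNA of a cell together with barcoded antibodies on its surface. The animals were chimeras in which CD45.1 B6 bone marrow had been given to CD45.2 B6 mice whose ankles were shielded from irradiation, so donor cells carry CD45.1 and shielded host cells CD45.2. The steady-state library came from untreated chimeras, and the day 7 library from chimeras sampled 7 days after a retro-orbital injection of 200 µL of clodronate-laden liposomes, which kill phagocytes that take them up. There was 1 library per group, the labels do not state how many animals went into each, and every difference between the libraries therefore lacks a replicate check. Intervals in brackets are exact 95% intervals of counting error only; they leave out the spread between cells, animals and preparations.

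Ly6C-low (nonclassical) monocytes patrol the inner vessel wall and descend from classical Ly6C-high monocytes through a transitional stage that still carries Ly6C. NR4A1 is an orphan nuclear receptor on which most Ly6C-low monocytes of mouse blood depend. C/EBPβ acts on an Nr4a1 enhancer and supports the survival of these cells, and KLF2 and KLF4 are zinc finger factors that restrain inflammatory activation. POU2F2 is an octamer-binding factor best known from B cells, and MEF2A a MADS-box factor. IRF2 is an interferon regulatory factor that competes with IRF1, and ETS1 is an ETS factor best known from lymphocytes and endothelium. Nr4a1 and Klf2 also belong to the genes that respond within minutes to hours to signalling, so that Fos and Jun, which form the AP-1 factor and are induced by tissue dissociation, were read beside them.

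The bases just before the annotated starts of Nr4a1 and Klf2 are shown because the day 7 values and the Fos and Jun check turn on these genes. Both are from RefSeq on GRCm38.p6, which is mm10, the build named for the count matrices. They cover the 250 bases before the start on the plus strand, chr15:101266596-101266845 for Nr4a1 and chr8:72318812-72319061 for Klf2. The annotated span of Nr4a1 begins further upstream, at 101253902 of chromosome 15, and ends at 101274795. Klf2 spans 72319062 to 72321654 of chromosome 8. Capitals mark every match to the CRE-like heptamer TGCGTCA in the Nr4a1 sequence and to the MEF2 box in the Klf2 sequence.
Nr4a1: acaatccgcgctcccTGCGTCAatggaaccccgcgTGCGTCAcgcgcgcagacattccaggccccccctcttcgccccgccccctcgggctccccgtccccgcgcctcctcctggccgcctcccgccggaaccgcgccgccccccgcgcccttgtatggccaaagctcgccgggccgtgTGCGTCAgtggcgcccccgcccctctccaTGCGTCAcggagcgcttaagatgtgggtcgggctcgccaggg
Klf2: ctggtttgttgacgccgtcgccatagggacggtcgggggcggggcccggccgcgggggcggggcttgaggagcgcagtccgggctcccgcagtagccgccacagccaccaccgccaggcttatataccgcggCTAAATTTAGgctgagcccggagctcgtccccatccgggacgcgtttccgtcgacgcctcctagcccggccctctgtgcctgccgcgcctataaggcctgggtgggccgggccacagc

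Windows of 300 bases, from 250 before to 50 after a start, were searched on both strands for 9 motifs in the 7 regulators with an entry in the RefSeq table; Ets1 has none there. The Nr4a1 window held 4 matches to TGCGTCA, beginning 235, 215, 71 and 42 bases before the start. This heptamer was present in 2.12% of the 32851 windows, and 4 or more matches in 1 of them. The Cebpb window held 1 match to it, on the minus strand 7 bases before the start. The Klf2 window held a MEF2 box 118 bases before the start and the Mef2a window held 1 starting 2 bases before it, against 0.557% of all windows. The IRF core AANNGAAA matched once in the Pou2f2 window and at 2 overlapping places in the Irf2 window, against 23.9% of all windows. The KLF box CACCC matched in the Klf2, Cebpb, Pou2f2 and Irf2 windows and in 57.5% of all windows. TGANTCA (AP-1, 7.81% of windows), TGACGTCA (CRE, 1.79%), AAAGGTCA (NR4A response element, 1.51%), ATGCAAAT (octamer, 1.74%) and the CArG box (1.63%) matched in none of the 7 windows, which says only that these letters are not in them.

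The other regulators lie on chromosome 4 (Klf4, 55527137 to 55532475), chromosome 2 (Cebpb, 167688915 to 167690432), chromosome 7 (Pou2f2, 25087350 to 25180797, and Mef2a, 67231163 to 67376456), chromosome 8 (Irf2, 46739745 to 46847458) and chromosome 9 (Ets1, 32636241 to 32757820). The unit of all levels below is UMIs of a gene per 1000000 UMIs, summed over the cells of a group (CPM). Reads were taken at transcript 3′ ends, so a CPM value counts transcripts and levels are compared within a gene, not between genes.

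After filtering, 1630 steady-state cells (17060676 UMIs, median 9558.5 per cell) and 1200 day 7 cells (10824984 UMIs, median 8309) remained, with 0 shared barcodes. Cells were gated on Ly6c2, on Treml4 and Ace, which mark Ly6C-low monocytes, and on the complement C1q genes of macrophages. The gates held 139 steady-state and 439 day 7 classical monocytes, 67 and 116 transitional monocytes, 110 and 97 Ly6C-low monocytes, and 902 and 154 macrophages. All 14 Ly6C-low markers were above 20 CPM in the Ly6C-low gate of both libraries. So were all 12 macrophage markers in the macrophage gate and all 10 classical markers in the classical and transitional gates. These lists include genes used for gating, so part of this was fixed by the gates, and 20 CPM does not set the monocyte gates apart. In the classical gate 9 of the 14 Ly6C-low markers were also above it in each library. In the Ly6C-low gate 8 of the 10 classical markers were above it at steady state and 9 at day 7. The 14 Ly6C-low markers summed to 1070 and 1073 CPM in the classical gate and to 7180 and 6832 CPM in the Ly6C-low gate. Cxcl10 led the genes of the steady-state transitional gate. Of the transitional cells, 18 of 67 and 55 of 116 entered on 1 UMI of Treml4 or Ace, while 4 of 902 and 1 of 154 macrophages held 1 such UMI. By its label the sort took live CD45+ CD11b+ cells and left out those positive for Ly6G, SiglecF, CD64, MHCII, Ly6C or CD177, yet the Ly6C antibody had medians of 47 and 57 counts in the classical gate against 5 and 13 in the Ly6C-low gate. Median antibody counts per cell were 1050 at steady state and 543.5 at day 7. Median UMIs per cell were similar between libraries in the monocyte gates (9138 and 9393 in classical, 9932 and 9226.5 in transitional, 6851.5 and 6619 in Ly6C-low cells) and were 10171.5 and 7162 in macrophages.

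At steady state all 8 regulators were higher in Ly6C-low than in classical monocytes, each with an interval that left out no difference, and Nr4a1, Pou2f2 and Ets1 were past 2-fold. Of all 5659 genes with at least 20 CPM in either gate, 2802 were higher in Ly6C-low cells, 1038 with an interval above no difference. On the higher side 7.93% were past 2-fold. The Cebpb log2 ratio was 0.23, and -0.06 with Leiden clusters in place of gates. At day 7 Nr4a1, Klf2 and Pou2f2 were past 2-fold of the 7 regulators above the minimum, beside 6.31% of genes. The steady-state transitional gate had 2 regulators past 2-fold over the classical gate, Pou2f2 and Ets1, beside 3.55% of genes, and the day 7 transitional gate had Pou2f2 alone, beside 2.17%. Ly6C-low over transitional cells gave Ets1 alone at steady state (2.79-fold, beside 3.54% of genes past 2-fold on the higher side) and no regulator at day 7, beside 8.28% of genes past 2-fold in either direction, where Pou2f2 came nearest with 1.98-fold. These contrasts share the classical cells and, within a library, the library itself, so they describe gates and not replicated groups.

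**Figure D1:**
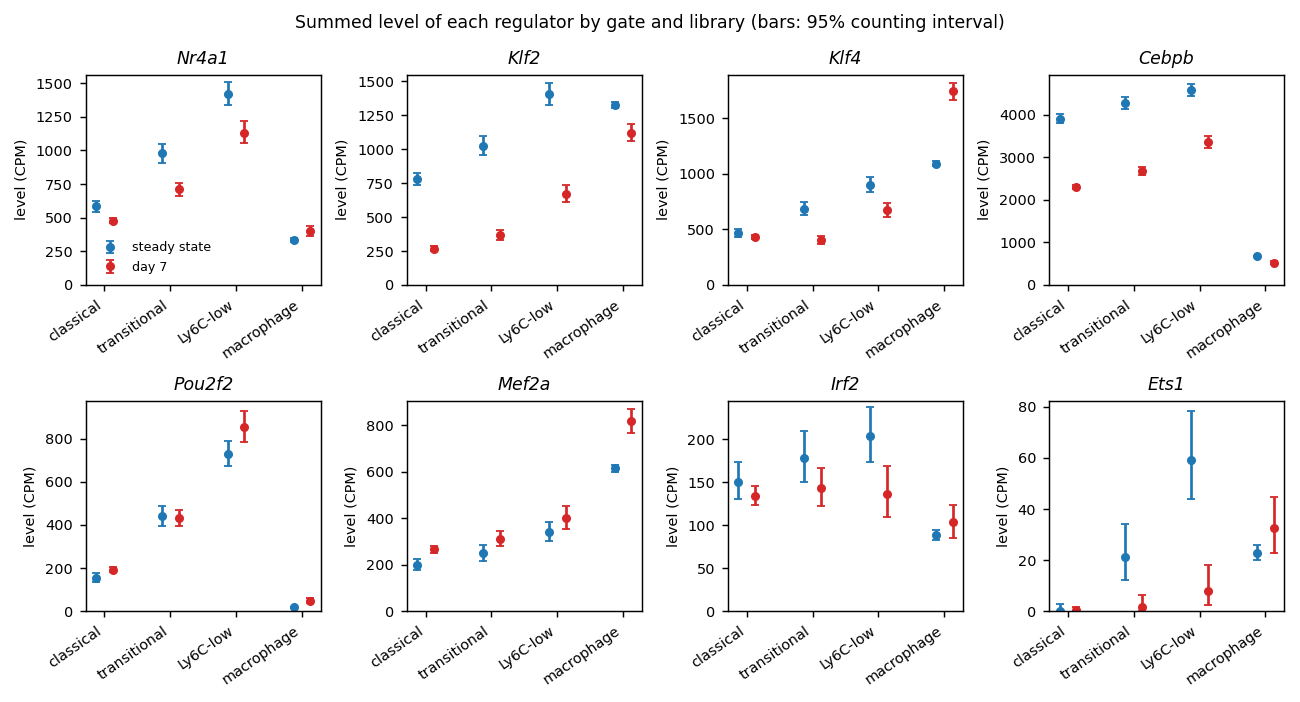
Level of each regulator (y axis, CPM, linear from 0) in the 4 gates (x axis) at steady state (blue) and day 7 (red); points are sums over the cells of a gate in 1 library and bars 95% counting intervals. Nr4a1 and Pou2f2 are stepped upward from classical to Ly6C-low monocytes in both libraries, while Klf4 and Mef2a are highest in macrophages.

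Nr4a1 stood at 584 CPM in classical, 977 in transitional and 1420 in Ly6C-low monocytes at steady state, and at 334 CPM in macrophages. At day 7 the levels were 477, 709, 1132 and 400 CPM in the same order. The order Ly6C-low, transitional, classical, macrophage was the same in both libraries, and neighbours in it differed beyond the counting intervals. Ly6C-low cells had 2.43-fold the classical level at steady state (log2 ratio 1.28 [1.15 to 1.42]) and 2.37-fold at day 7 (1.25 [1.12 to 1.37]). Most Ly6C-low monocytes held at least 1 Nr4a1 UMI, 98.0% of 101 steady-state and 88.6% of 88 day 7 cells once thinned to 3000 UMIs, against 73.3% and 63.3% of classical monocytes and 42.1% of macrophages in each library (99.1%, 95.9%, 93.5%, 83.1%, 60.9% and 52.6% without thinning).

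Klf2, a factor that keeps leukocytes and endothelium quiescent, was at 780 CPM in classical, 1026 in transitional and 1406 in Ly6C-low monocytes at steady state and at 1328 in macrophages. The Ly6C-low and macrophage levels did not differ beyond the counting interval (log2 ratio 0.08 [-0.01 to 0.17]). At day 7 the levels were 268, 368, 670 and 1122 CPM, and macrophages stood above all 3 monocyte gates. The Ly6C-low level was 1.80-fold the classical level at steady state and 2.50-fold at day 7. The day 7 ratio was short of 2-fold in 1 of 15 alternatives, cells thinned to 3000 UMIs and gated anew (log2 ratio 0.83, against 1.32).

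Klf4, which takes part in monocyte differentiation, was highest in macrophages, with 1092 CPM at steady state and 1742 at day 7. Among monocytes it was 464 CPM in classical, 686 in transitional and 903 in Ly6C-low cells at steady state. At day 7 the classical and transitional levels, 430 and 404 CPM, did not differ beyond the counting interval, and the Ly6C-low level was 670 CPM. The gradient over the monocyte gates was thus 1.95-fold at steady state and 1.56-fold at day 7 from classical to Ly6C-low cells, and 3 of 15 alternatives put the steady-state ratio past 2-fold.

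Cebpb was a monocyte transcript in these cells, with 3903, 4269 and 4587 CPM in classical, transitional and Ly6C-low monocytes at steady state against 670 CPM in macrophages. At day 7 it was at 2306, 2673, 3366 and 528 CPM. The steps between monocyte gates were small beside the step to macrophages: Ly6C-low cells exceeded classical cells 1.18-fold and 1.46-fold, and exceeded macrophages 6.85-fold and 6.37-fold.

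Pou2f2 had the steepest gradient among the regulators above 20 CPM in classical monocytes. It was at 156 CPM in classical, 441 in transitional, 728 in Ly6C-low monocytes and 18.8 in macrophages at steady state, and at 193, 431, 855 and 48.2 CPM at day 7. Ly6C-low cells were 4.67-fold above classical cells at steady state (log2 ratio 2.22 [1.99 to 2.46]) and 4.43-fold at day 7 (2.15 [1.99 to 2.30]). Only 1.61% and 1.56% of tested genes had a higher ratio in these contrasts. Over macrophages the ratios were 38.6-fold and 17.7-fold.

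Mef2a, which drives muscle genes and also acts in myeloid cells, was highest in macrophages, at 616 CPM at steady state and 817 at day 7. In classical, transitional and Ly6C-low monocytes it was at 201, 249 and 341 CPM at steady state and at 267, 310.5 and 402 CPM at day 7, an upward step at each gate in both libraries. Irf2 monocyte levels of 151, 178 and 203 CPM at steady state, and of 134, 143 and 137 CPM at day 7, did not differ between neighbours beyond the counting intervals, and macrophages had 88.2 and 103 CPM.

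Ets1 was sparse. At steady state no UMI was found in the 139 classical monocytes, which allows up to 2.25 CPM and up to 2.16% of cells with a UMI, while the transitional gate held 17 UMIs (21.3 CPM) and the Ly6C-low gate 49 UMIs (59.3 CPM, 26.4% of cells). With 3 counts (2.25 CPM) set for the classical gate, the Ly6C-low level was 26.4-fold the classical level. This ratio leaves out the counting error of the 49 UMIs, so it is not a lower limit. Macrophages had 22.8 CPM, or 228 UMIs. With cells thinned to 3000 UMIs and gated anew the ratio of Ly6C-low to classical cells was 2.68 on the log2 scale, against 4.72. Of the 29 Ly6C-low cells with Ets1, 0 had a UMI of the endothelial genes Cdh5 or Kdr, 2 had a UMI of the T, B or NK cell markers, and the NK cell markers Ncr1, Klrb1c and Gzma were at 0 in that gate. Its 4 T cell markers summed to 3.63 CPM, with Cd3e and Cd3d at 0. In the transitional gate the 10 cells with Ets1 had a median of 18344 UMIs against 8664 in the other cells of the gate, and 1 cell gave 23.5% of the Ets1 UMIs. All 4 T cell markers and all 3 NK cell markers were at 0 in that gate, while 4 of the 10 cells held a UMI of a B cell marker.

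Against macrophages, 5 regulators were past 2-fold at steady state, all higher in Ly6C-low monocytes (Nr4a1, Cebpb, Pou2f2, Irf2 and Ets1, beside 12.2% of genes past 2-fold on the higher side). At day 7 there were 6 past it. Nr4a1, Cebpb and Pou2f2 were higher in Ly6C-low monocytes (background 11.5%), and Klf4, Mef2a and Ets1 were lower (background 24.5%). The Mef2a ratio at day 7, 2.03-fold lower, lay at the limit and stayed past 2-fold in 10 of 15 alternatives (log2 ratios from -1.10 to -0.80), and the steady-state Irf2 ratio of 2.31-fold was short of it on thinning (log2 ratio 0.86). The day 7 Ets1 ratio to macrophages, 4.18-fold lower, was short of 2-fold (log2 ratio -0.92) when the Ly6C antibody took the place of Ly6c2 in the gates.

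Surface protein gave a second reading of the gradient, in which Ly6C antibody and not Ly6c2 RNA ordered the cells. Only cells that had passed the RNA gates were split. These gates took cells with at most 1 Ly6c2 UMI only if they held Treml4 or Ace, so part of the gradient was fixed by them. The 149 steady-state cells with no Ly6c2, Treml4 or Ace past the limits were left out. They had 290 CPM of Nr4a1 and 84.8 CPM of Pou2f2. Monocytes of all 3 gates were split by Ly6C antibody counts into low, middle and high groups of equal size within each library. At steady state Nr4a1 was at 1515, 685 and 695 CPM from low to high Ly6C, Pou2f2 at 803, 279 and 181 CPM, and Ets1 at 63.3, 9.37 and 2.84 CPM. The corresponding Klf2 levels were 1474, 949 and 734 CPM, and Klf4 levels 922, 623 and 451 CPM. At day 7 Pou2f2 (527, 262 and 186 CPM) and Klf2 (484, 300 and 241 CPM) again descended, while Klf4 was level at 461, 440 and 452 CPM. Nr4a1 at day 7 was at 741, 493 and 569 CPM, highest with low Ly6C in both libraries and not stepped between the middle and high groups. Ets1 at day 7 was at 4.08, 0.941 and 0 CPM, from 7, 2 and 0 UMIs. The low group had a median of 4 Ly6C counts at steady state and 19 at day 7, and Ly6c2 RNA of 110 and 611 CPM, so the low groups of the libraries are not alike. Split in the same way by surface CD43, which is high on Ly6C-low monocytes, Nr4a1 was at 625, 956 and 1152 CPM and Pou2f2 at 241, 360 and 559 CPM from low to high at steady state. At day 7 neither followed CD43, with Nr4a1 at 600, 610 and 568 CPM and Pou2f2 at 361, 336 and 248 CPM. The median CD43 count in the Ly6C-low gate was 259 at steady state and 118 at day 7, against 119 and 105 in the classical gate.

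**Figure D2:**
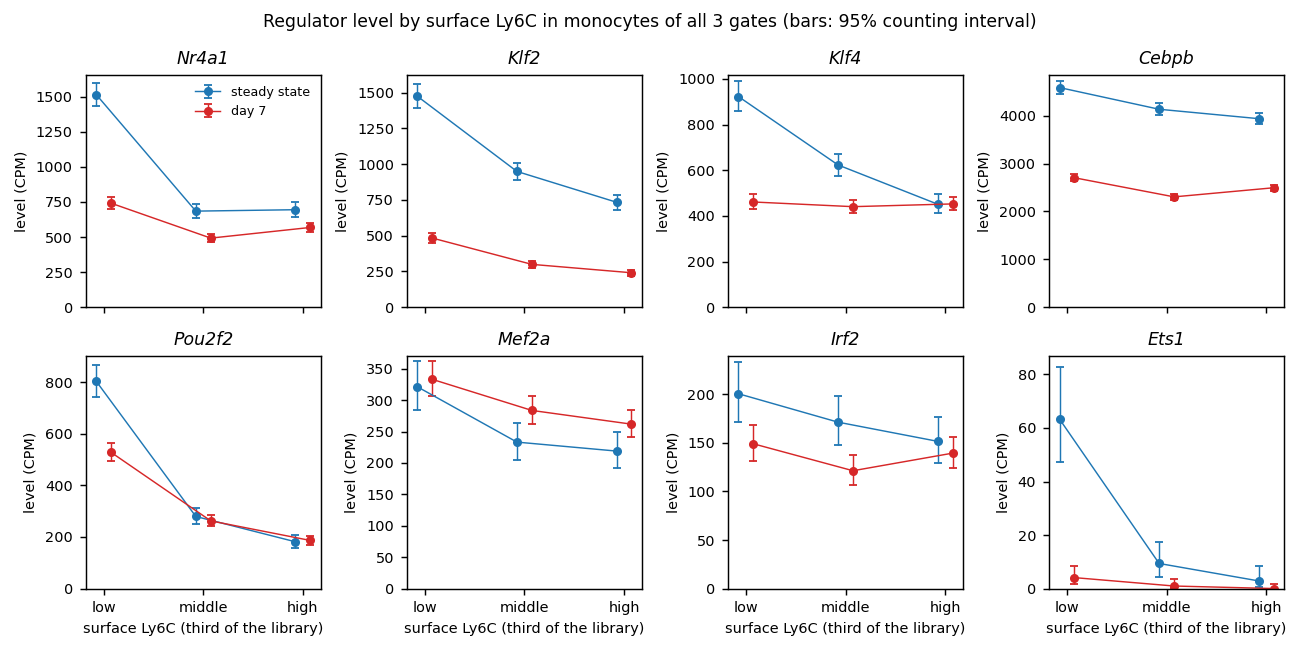
Level of each regulator (y axis, CPM, linear from 0) in monocytes of all 3 gates split by surface Ly6C within each library into groups of equal size (x axis, low to high); steady state is blue, day 7 red, bars are 95% counting intervals. Nr4a1, Pou2f2 and Ets1 are highest in the low Ly6C group at steady state, and Klf4 is level across the groups at day 7.

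The comparison of day 7 with steady state within each gate asked which regulators differed in the monocytes and macrophages found after clodronate. Klf2 was lower at day 7 by more than 2-fold in all 3 monocyte gates. In classical monocytes it was the only regulator past 2-fold, at 780 CPM and 268 CPM (2.91-fold lower, log2 ratio -1.54 [-1.66 to -1.42]), beside 1.49% of genes past 2-fold on the lower side. In transitional monocytes the levels were 1026 and 368 CPM (log2 ratio -1.48 [-1.65 to -1.31]), and in Ly6C-low monocytes 1406 and 670 CPM (-1.07 [-1.23 to -0.91]), with backgrounds of 3.23% and 4.10%. In macrophages Klf2 was 1328 and 1122 CPM, a log2 ratio of -0.24 [-0.33 to -0.16].

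The Klf2 difference was also seen in the distribution over cells. The median classical monocyte had 4.49 Klf2 UMIs per 10000 (quartiles 1.64 and 9.83) at steady state and 1.40 (0 and 3.98) at day 7. In Ly6C-low monocytes the medians were 10.3 (5.03 and 19.9) and 3.50 (1.11 and 11.4), so the middle ranges overlapped. With cells thinned to 3000 UMIs and gated anew the Klf2 log2 ratios were -1.25, -1.15 and -1.38 in classical, transitional and Ly6C-low monocytes, and with donor-class monocytes alone -1.49, -1.46 and -1.07. The classical gates of the libraries differed in make-up. With cycling cells left out, 125 of 139 steady-state and 333 of 439 day 7 cells remained in that gate. The classical monocyte-like Leiden cluster held 52 steady-state and 322 day 7 cells. Under the 16 alternatives, which include both settings, the classical Klf2 log2 ratio ranged from -1.61 to -1.24. The Ly6C-low ratio was -0.99 when cells with 1 Ly6c2 UMI were left out. Ranked by this ratio, 0.452% of tested genes were lower than Klf2 in classical, 1.13% in transitional and 3.55% in Ly6C-low monocytes.

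Ets1 was the other regulator past 2-fold on the lower side. Its counts were 49 UMIs at steady state and 5 at day 7 in Ly6C-low monocytes, 59.3 and 7.76 CPM (7.65-fold lower, log2 ratio -2.94 [-4.62 to -1.62]). In transitional monocytes they were 17 and 2 UMIs (-3.63 [-6.79 to -1.56]), and 11 of 14 alternatives kept that ratio past 2-fold. Ets1 stayed past 2-fold in the Ly6C-low gate under all 16 alternatives, but its level there was read from 29 and 5 cells. In macrophages the levels were 22.8 and 32.4 CPM, a difference within the counting interval (0.50 [-0.04 to 1.01]).

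**Figure D3:**
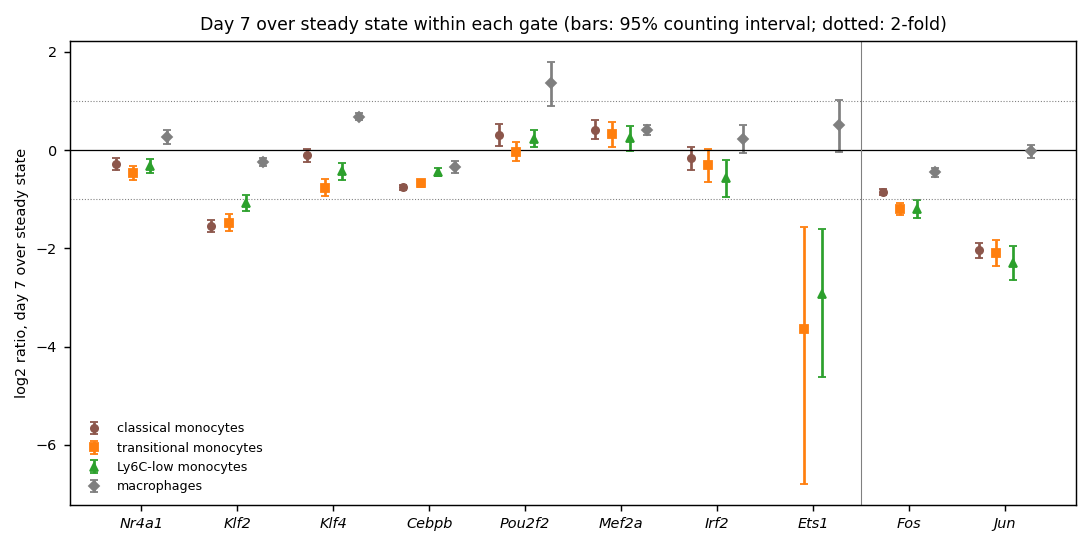
Log2 ratio of day 7 over steady state (y axis) for the 8 regulators and for Fos and Jun (x axis) in each gate, where either library reached 20 CPM; bars are 95% counting intervals and dotted lines 2-fold. Klf2 lies below the lower dotted line in all 3 monocyte gates and near 0 in macrophages, and Jun does the same.

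Nr4a1 was lower at day 7 in each monocyte gate by less than 2-fold, with log2 ratios of -0.29 [-0.41 to -0.17] in classical, -0.46 [-0.60 to -0.32] in transitional and -0.33 [-0.46 to -0.19] in Ly6C-low cells. In macrophages it was higher, 0.26 [0.12 to 0.40]. Klf4 had log2 ratios of -0.11 [-0.24 to 0.03], -0.76 [-0.95 to -0.58] and -0.43 [-0.60 to -0.26] in the same monocyte gates and of 0.67 [0.60 to 0.74] in macrophages. Cebpb was lower in all 4 gates, with log2 ratios of -0.76, -0.68, -0.45 and -0.34.

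Mef2a had positive log2 ratios in all 4 gates, 0.41, 0.32, 0.23 and 0.41, of which the Ly6C-low value had an interval that reached 0 [-0.01 to 0.48]. Pou2f2 had log2 ratios of 0.31, -0.03 and 0.23 in classical, transitional and Ly6C-low monocytes. Irf2 had its largest monocyte ratio in Ly6C-low cells, -0.58 [-0.96 to -0.19]. Over all tested genes the median log2 ratio was 0.16, 0.07, 0.11 and 0.12 in classical, transitional and Ly6C-low monocytes and macrophages, against -0.17, -0.57, -0.44 and 0.33 over the tested regulators.

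The transitional ratios of these regulators rest on few cells. With cells thinned to 3000 UMIs and gated anew, 19 steady-state and 36 day 7 cells were left in that gate, and its log2 ratios became 0.94 for Pou2f2, 1.25 for Mef2a, -0.15 for Klf4 and -0.92 for Irf2. Markers of neutrophils also differed between the libraries in every gate. The 7 neutrophil markers summed to 131 and 966 CPM in classical, 473 and 969 in transitional, 24.2 and 264 in Ly6C-low monocytes and 18.3 and 159 in macrophages at steady state and day 7, with Ly6g at 0 UMIs in all of them. Median mitochondrial shares ranged from 1.5% to 2.11% over the gates at steady state and from 2.08% to 2.75% at day 7. The part of either in the ratios was not tested.

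In macrophages Pou2f2 alone was past 2-fold, with 188 UMIs (18.8 CPM) at steady state and 55 (48.2 CPM) at day 7, a log2 ratio of 1.35 [0.89 to 1.80], beside 1.20% of genes on the higher side. A single day 7 cell gave 16.4% of its UMIs. Within host-class macrophages the levels were 17.1 and 29.3 CPM (0.78), short of 2-fold. The summed level of the 14 Ly6C-low monocyte markers in the macrophage gate was 226 CPM at steady state and 356 CPM at day 7, with none of them at 0 UMIs, and its part in the Pou2f2 value was not tested.

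Host and donor macrophages could be set apart by the CD45 antibodies. Host-class cells were 723 and donor-class cells 131 of the 902 steady-state macrophages. Ets1 was at 25.9 CPM in host-class and 3.02 CPM in donor-class macrophages (211 and 4 UMIs, 8.58-fold, with a log2 interval of 1.72 to 4.99). Mef2a was at 656 and 372 CPM (0.82 [0.69 to 0.96]), and Klf4 at 1161 and 748 CPM (0.63 [0.54 to 0.73]). Nr4a1, Klf2, Cebpb, Pou2f2 and Irf2 differed by log2 ratios between -0.63 and 0.13. At day 7 there were 109 host-class and 13 donor-class macrophages. Mef2a was at 872 and 428 CPM in them, Klf4 at 1884 and 1183 CPM, and Ets1 at 34 and 0 UMIs, in the steady-state direction. Nr4a1 went the other way from steady state: host-class cells had 328 CPM against 380 in donor-class cells at steady state (log2 ratio -0.21 [-0.35 to -0.07]) and 452 against 171 CPM at day 7 (1.40 [0.75 to 2.12]). Pou2f2 was lower in host-class cells at both times, by a log2 ratio of -1.55 [-2.65 to -0.33] at day 7 from 26 and 10 UMIs.

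Fos and Jun were lower at day 7 in the monocyte gates as well. Jun was at 605, 572 and 633 CPM in classical, transitional and Ly6C-low monocytes at steady state and at 147, 134 and 129 CPM at day 7. Fos was at 2464, 1869 and 1211 CPM and at 1358, 810 and 526 CPM. In macrophages Jun was at 519 and 509 CPM and Fos at 1241 and 906 CPM. The list of 21 other immediate early and dissociation genes went the same way in the monocyte gates. In classical monocytes 15 of 18 tested genes were lower at day 7, 6 of them past 2-fold, beside 1.49% of all genes. In transitional monocytes 16 of 19 were lower, 8 past 2-fold, beside 3.23%. In Ly6C-low monocytes 18 of 19 were lower, 9 past 2-fold, with a median log2 ratio of -0.99. Of all 5712 genes tested in the Ly6C-low gate 2388 were lower, and 4.10% were past 2-fold lower. Levels named next are from that gate. The heat shock gene Hspa1a was at 60.5 and 1.55 CPM, Hspa1b at 47.2 and 6.21 CPM, and the zinc finger gene Egr1 at 66.6 and 9.31 CPM. In macrophages 11 of 21 were higher and 10 lower, with a median of 0.05.

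Across cells, co-variation with Fos and Jun was higher for Klf2 than for Nr4a1 in the 4 steady-state gates and in day 7 macrophages, and lower in the 3 monocyte gates at day 7. Spearman's rho between Klf2 and summed Fos and Jun, each per 10000 UMIs of the same cell, was 0.34 in 139 classical monocytes and 0.32 in 902 macrophages at steady state and 0.32 in 154 macrophages at day 7. It was 0.09 in 439 classical and -0.10 in 97 Ly6C-low monocytes at day 7. For Nr4a1 rho ranged from 0.00 in steady-state transitional to 0.26 in day 7 classical monocytes. For Nr4a1 in day 7 transitional and Ly6C-low monocytes it was 0.18 and 0.15, against -0.01 and -0.10 for Klf2. With cells thinned to 3000 UMIs the steady-state transitional order turned, with -0.01 for Klf2 and 0.19 for Nr4a1, while the Klf2 values for classical cells and macrophages at steady state and macrophages at day 7 were 0.32, 0.24 and 0.40. The points share a library and a depth per cell, and the counts are sparse.

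Cells were then split within each gate at the cut points that divide both libraries together into low, middle and high summed Fos and Jun. In classical monocytes with low Fos and Jun, Klf2 was at 347 CPM in 17 steady-state cells and 241 CPM in 176 day 7 cells (log2 ratio -0.53 [-0.94 to -0.10]). In the middle group it was at 625 and 250.5 CPM (-1.32) and in the high group at 951 and 323 CPM (-1.56 [-1.73 to -1.38]). The same widening was seen in Ly6C-low monocytes, where the log2 ratios were -0.35 [-0.67 to -0.02], -1.19 and -1.91 [-2.45 to -1.41] from low to high. The low group there had 17 steady-state and 52 day 7 cells, and the high group 53 and 16. Klf2 was thus lower at day 7 in each of the groups, and the difference was smallest in cells with low Fos and Jun in these 2 gates. In transitional monocytes the ratios were -1.30, -1.12 and -1.84, with 7 steady-state cells in the low group and 20 day 7 cells in the high group.

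**Figure D4:**
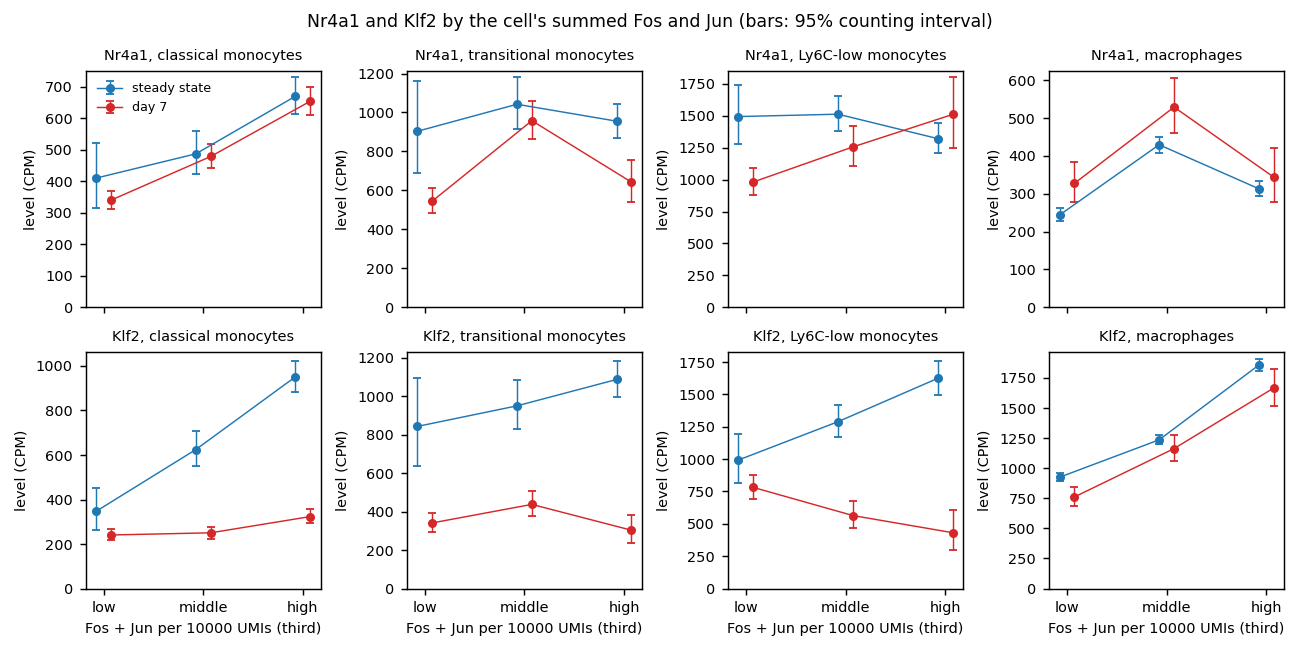
Level of Nr4a1 (top row) and Klf2 (bottom row) on the y axis (CPM, linear from 0) in cells with low, middle and high summed Fos and Jun (x axis, cut points shared by both libraries within a gate); steady state is blue, day 7 red, bars are 95% counting intervals. Klf2 is higher with more Fos and Jun in macrophages and classical monocytes of both libraries, least in day 7 classical cells, and in steady-state Ly6C-low monocytes. The classical Nr4a1 lines of both libraries lie together.

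In classical monocytes Nr4a1 differed less between the libraries than Klf2 in the same split. It was at 410, 487 and 670 CPM from low to high Fos and Jun at steady state and at 340.5, 479 and 655 CPM at day 7, and each group's interval for the difference between libraries held 0. In Ly6C-low monocytes the Nr4a1 log2 ratios were -0.61, -0.27 and 0.19 from low to high. Within day 7 Ly6C-low cells the low Fos and Jun group had 52 cells and the high group 16. From low to high, Nr4a1 went from 982 to 1510 CPM and Klf2 from 781 to 432 CPM, opposite directions in the sums. Across the 88 thinned cells of that gate rho with summed Fos and Jun was 0.12 for Nr4a1 and -0.01 for Klf2. The fall in Klf2 was thus not seen across thinned cells. Within steady-state Ly6C-low cells Klf2 went from 993 to 1623 CPM (log2 ratio 0.71 [0.42 to 1.01]). There the Nr4a1 interval held 0 (-0.18 [-0.43 to 0.08]). With the 3 groups given equal weight in both libraries the classical log2 ratio was -0.09, against -0.29 without, and that of Klf2 was -1.24 against -1.54. In transitional and Ly6C-low monocytes the equally weighted ratios were -0.44 and -0.21 for Nr4a1 and -1.41 and -1.14 for Klf2. In macrophages Klf2 was at 925, 1236 and 1857 CPM at steady state and at 761, 1163 and 1666 CPM at day 7, about 2-fold from low to high in each library, whereas Nr4a1 was highest in the middle group of both. Klf4 was also higher in macrophages with high Fos and Jun, by log2 ratios of 0.73 and 0.89. Handling of the samples and the day 7 condition cannot be told apart with 1 library each.

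Among pairs of regulators, Nr4a1 and Cebpb had the highest correlation across cells in both macrophage gates and in the 3 day 7 monocyte gates, and another pair in the 3 steady-state monocyte gates. With cells thinned to 3000 UMIs rho for Nr4a1 and Cebpb was 0.48 in 839 steady-state and 0.45 in 126 day 7 macrophages. In Ly6C-low monocytes it was 0.14 in 101 steady-state and 0.47 in 88 day 7 cells, in transitional monocytes 0.29 in 67 and 0.33 in 116, and in classical monocytes 0.17 in 135 and 0.18 in 411. The leading steady-state pairs were Klf2 and Klf4 in Ly6C-low cells (0.37), Nr4a1 and Klf4 in transitional cells (0.34) and Nr4a1 and Pou2f2 in classical cells (0.26). Over the 8 profiles given by 4 gates in 2 libraries, the genes whose log2 level followed Nr4a1 most closely were Dusp2, a phosphatase of MAP kinases (Pearson r = 0.995), Stk24 and Filip1l. Those for Klf2 were Ctss (the lysosomal protease cathepsin S, 0.973), Hpgd and Laptm4a, and those for Klf4 were Mef2c (0.986), Ncoa3 and Nfkbiz. Cebpb was followed by Unc119 (0.993), Plin2 and H3f3a, and Pou2f2 by Grk3 (0.997), Lbh and Gngt2. Mef2a was followed by Dmxl1 (0.994), Wnk1 and Elk4, Irf2 by Nsd3 (0.977), Clec2i and Krt80, and Ets1 by Irf1 (0.960), Mapk3 and Slc15a4. These were the best of 4171 genes over 8 points.

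Relatives and partners of the regulators were counted in the same Ly6C-low contrast; each pair of levels below is steady state, then day 7. Of all 5712 genes tested there, 3324 were higher and 2388 lower at day 7, the background for the counts that follow. Of the other KLF genes, 2 of 6 were higher and 4 lower in Ly6C-low monocytes, none past 2-fold; Klf13 was at 433 and 292 CPM and Klf7 at 42.4 and 68.3 CPM. Both NR4A relatives were lower, none past 2-fold, with Nr4a2 at 183 and 132 CPM. Of 4 tested C/EBP genes 3 were lower, among them Cebpd (107 and 55.8 CPM) and Cebpg (79.9 and 40.3 CPM). The octamer and MEF2 partners had 4 tested genes, of which 2 were lower; Mef2c was at 292 and 150.5 CPM. Of 6 tested IRF genes 5 were lower and 1 was past 2-fold, Irf3, which activates interferon genes, at 42.4 and 12.4 CPM; Irf7 was at 79.9 and 43.4 CPM and Irf1 at 126 and 90.0 CPM. Of 10 ETS relatives 7 were higher, a share near that of all genes, none past 2-fold and 2 with an interval above no difference; Etv3 was at 67.8 and 119 CPM, Ets2 at 155 and 217 CPM, and the myeloid factor Spi1 at 795 and 670 CPM.

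Of 12 other fate regulators of monocytes 10 were higher at day 7 in the Ly6C-low gate, 3 with an interval above no difference and none past 2-fold, with Tcf7l2 at 107 and 169 CPM, Rbpj, the DNA-binding partner of Notch, at 63.0 and 99.3 CPM, and Stat3 at 208 and 270 CPM. Of 20 effector genes of Ly6C-low monocytes 10 were higher and 10 lower, 2 past 2-fold and both lower. These were Pglyrp1, a peptidoglycan recognition protein, at 902 and 295 CPM and the scavenger receptor Cd36 at 364 and 147 CPM. Itgal, the integrin chain that crawling monocytes use, was at 678 and 1191 CPM. Of the listed targets of KLF2, 2 of 3 tested genes were lower, none past 2-fold. S1pr5, a sphingosine phosphate receptor, was at 107 and 55.8 CPM and Itgb7 at 142 and 101 CPM. The other gates differed. In classical monocytes 2 of 3 were higher, both with an interval above no difference, beside 3560 higher of all 5757 genes. In transitional monocytes 2 of 4 were higher with such an interval, beside 3225 of 5757. The other 2 were lower, 1 past 2-fold, beside 3.23% of genes. In macrophages 3 of 3 were higher, beside 3935 of 6491.

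In the transitional gate 9 of the 20 effector genes were past 2-fold lower at day 7, with a median log2 ratio of -0.59. Of all 5757 genes tested in that gate 3.23% were past 2-fold lower, and their median log2 ratio was 0.07. The Ly6C-low marker list summed to 3699 CPM in that gate at steady state and 3028 CPM at day 7, and 18 of 67 against 55 of 116 cells rested on 1 Treml4 or Ace UMI, so the transitional gates of the libraries are not alike. The part of this in the transitional ratios was not tested.

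Cells outside the gates held the highest Ets1 level at day 7. There were 412 such cells at steady state with 12.1 CPM of Ets1 and 394 at day 7 with 89.9 CPM. Among the latter, 178 cells with granule protease and neutrophil granule genes had 115 CPM (271 UMIs, 52.8% of cells with a UMI), with Pou2f2 at 29.2 CPM and Klf2 at 97.6 CPM. Of the 106 ungated day 7 cells with Ets1, 81 held a UMI of the cycling genes Mki67, Top2a, Cenpf or Birc5. A UMI of the T, B or NK cell markers was held by 27 of them. Their median was 17014.5 UMIs, against 2392 in ungated day 7 cells without Ets1. Deeper cells show more genes, and cells without Ets1 were not counted for these markers, so the counts do not link Ets1 to cycling. Dendritic-gene cells (127 and 41) had Nr4a1 at 453 and 528 CPM and Klf2 at 908 and 484 CPM.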

How the data were processed

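CITE-seq libraries of sorted ankle synovial cells were analysed, 1 steady-state and 1 day 7. The deposited values are raw UMI counts per gene and antibody barcode, produced by the authors using Cell Ranger 6.1.2 and mm10, per the submitters' processing notes, which also list Seurat 4.4.0 without its use. Counting options are not given in the sources used here.

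Barcodes needed 500 or more UMIs, 200 or more genes and a mitochondrial share of 10% or less, and 7 of 1637 and 10 of 1210 called doublets (Scrublet in scanpy 1.11.5) were removed. All gates required under 10 UMIs per 10000 of granule genes (Mpo, Elane, Prtn3, Ctsg, Camp, Ltf, Ngp) and of fibroblast genes (Col1a1, Col1a2, Col3a1, Prg4). Macrophages had at least 10 C1q UMIs per 10000, at least 1 UMI of Csf1r or Adgre1 and at most 1 Ly6c2 UMI. Monocytes had less C1q, at least 1 UMI of Csf1r, Cx3cr1 or Ccr2 and at most 1 of Flt3, Zbtb46, Cd209a and Mgl2. Classical cells had at least 2 Ly6c2 UMIs and 0 of Treml4 and Ace, transitional cells at least 2 and 1, and Ly6C-low cells at most 1 Ly6c2 UMI and at least 1 of Treml4 and Ace. Host-class cells had log2 of CD45.2 plus 1 over CD45.1 plus 1 antibody counts of at least 2, and donor-class cells one of at most -1.

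UMIs were summed per gate and library. Ratios have exact conditional Poisson intervals and shares exact Clopper-Pearson intervals (scipy 1.17.1). The ratio code was run on simulated Poisson sums, the model its intervals assume. That run holds no spread between cells, so it checks the code and not the fit of the intervals to these cells. A gene was called past 2-fold if it had at least 20 CPM in either group; a count of 0 was set to 3. With 1 library per group no test was made, and no p-value is given.

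The regulators and gene lists were chosen with earlier results of these data known. Named genes were the regulators, Fos and Jun, the 3 closest profiles of each regulator (log2 of CPM plus 5, genes reaching 50 CPM), and up to 3 genes per list, by the interval bound farthest from no difference in Ly6C-low monocytes. There were 16 alternatives.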

Additional observations from a re-analysis of the deposited data

Results flagged for a closer look

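For day 7 over steady state, Nr4a1 in all 3 monocyte gates and Klf4 in transitional and Ly6C-low monocytes were on the other side of no difference from macrophages, with counting intervals that did not reach it. The classical Klf4 interval did reach it. For Nr4a1 the log2 ratio was lower than that of macrophages in classical, transitional and Ly6C-low monocytes (differences of -0.55, -0.72 and -0.59). For Klf4 the differences were -1.44 in transitional and -1.11 in Ly6C-low monocytes. With 1 library per group these differences between gates were not tested. The macrophage Nr4a1 ratio itself ranged from 0.08, with cycling cells left out, to 0.46, in host-class cells alone. It is a ratio of summed UMIs. The median macrophage had 1.22 Nr4a1 UMIs per 10000 at steady state and 1.03 at day 7.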

How the results depend on the processing

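No paired analysis was possible because each group has 1 library. Of 1371 values of single regulators under 16 alternatives, 1344 kept the sign of the reported value, as did all 403 values of ratios past 2-fold. The number of regulators past 2-fold moved by more than 1.5 times as follows. For day 7 over steady state, transitional monocytes had 1 in place of 2 with equal weight per cell, a minimum of 50 CPM or cycling cells left out. Ly6C-low monocytes had 1 in place of 2 without cells of 1 Ly6c2 UMI, or with Ly6c2 limits of 4 and 0. Macrophages had 0 in place of 1 with a minimum of 50 CPM or in host-class cells alone. For transitional over classical cells at steady state the number was 1 in place of 2 with equal weight, 50 CPM, thinned cells or cycling cells left out, and at day 7 it was 0 in place of 1 without cycling cells. For Ly6C-low over transitional cells at day 7 it was 1 in place of 0 with equal weight, no CPM minimum, doublets kept, cells of 1 Ly6c2 UMI left out or donor-class cells alone, and 2 with Ly6c2 limits of 4 and 0; at steady state it was 3 in place of 1 with thinned cells. For Ly6C-low over classical cells at steady state it was 5 in place of 3 with Leiden clusters in place of gates. Smaller moves came from single regulators near the limit. For Ly6C-low cells over macrophages at day 7 Mef2a was past 2-fold in 10 and Ets1 in 13 of 15 alternatives, and at steady state Irf2 in 14. For Ly6C-low over classical cells Klf2 was past it in 14 of 15 at day 7, and at steady state Klf4 in 3 and Klf2 in 2. Thinning put Mef2a past 2-fold for day 7 over steady state in transitional cells (1.25). No cluster matched the transitional gate, so that alternative gave no transitional value. The causes of these moves were not tested. Scaling by the median ratio moved all values by at most 0.07 (log2). Thinning to equal depth left 19 and 36 transitional cells.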
